A study of Mus musculus with 18 samples.

Results

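The 9 genes described here encode transcription factors known from the bulge, the stem cell niche of the hair follicle. They are Sox9, Lhx2, Nfatc1, Tcf7l1, Tcf7l2, Tbx1, Foxc1, Nfib and Runx1. They were chosen by name and were followed through all 18 RNA-seq libraries as 9 of the 23951 genes in the expression table. The unit is FPKM, fragments scaled to the length of the transcript and to the depth of the library. All 9 passed the filter on low values, at least 1 FPKM in at least 3 libraries, which kept 12751 genes for testing. Tcf7l1 was under 1 FPKM in all 9 b-KC libraries and passed only through HF-SCs, where it is higher, so its differences between the cell types carry that selection.

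Libraries came from cells sorted from ear skin, 3 mice in each of 6 groups, to ask how mutant and non-mutant epidermal stem cells differ during psoriasis-like disease. DKO* mice carried floxed JunB and c-Jun alleles (JunB f/f c-Jun f/f), the tamoxifen-inducible recombinase K5-Cre-ERT and the mT/mG reporter, which turns a cell from membrane Tomato to membrane GFP when Cre acts. The mice were 8 weeks old, of mixed background and of both sexes, and received 4 daily injections of 2 mg tamoxifen. HF-SCs (bulge hair follicle stem cells, CD45- CD49f high CD34+) and b-KCs (basal keratinocytes, CD45- CD49f high CD34-) were sorted on day 7 from DKO* mice 814, 815 and 817 into a mutant fraction (GFP) and a non-mutant fraction (Tom). Control mice (Co) 810, 825 and 828 carried K5-Cre-ERT and mT/mG with wild-type or heterozygous JunB and c-Jun, and gave 1 HF-SC and 1 b-KC library each. The labels do not divide the control cells by colour and do not give their day.

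The design limits what the groups stand for. K5, the promoter that drives Cre, is active in basal keratinocytes and in follicle stem cells alike, so both cell types were recombined in the same mice. The 4 DKO* groups share their 3 mice, the comparisons of GFP and of Tom with Co share the control libraries, and an unrecombined cell of any CD34+ kind would carry Tomato. In bulk libraries fewer cells of a type and less RNA per cell cannot be told apart.

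Bulge stem cells rest for most of the hair cycle and wake to build a new follicle. Their state is kept by a small circuit of transcription factors that binds shared enhancers. Sox9 and Lhx2 are needed to keep stem cell identity, Nfatc1 and Foxc1 hold the cells in quiescence, Tbx1 and Nfib act in renewal and in the niche, Tcf7l1 and Tcf7l2 carry and restrain the Wnt response, and Runx1 works with Cbfb in the activation of the stem cells. Basal keratinocytes of the epidermis between follicles have less of this circuit, and several of these factors are also known from other cells, Runx1 and Nfatc1 from leukocytes and Foxc1 and Nfib from mesenchyme among them.

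The deleted genes followed the labels. Jun had 835 to 1086 FPKM in HF-SC Co and 876 to 1000 in b-KC Co, against 29.6 to 88.4 in the GFP libraries of both cell types. The Tom libraries lay between them, at 163 to 614 FPKM, and Junb had the same order in both cell types. Cd34, the sorting marker of HF-SCs, had 640 to 889 FPKM in HF-SC Co and 1.13 to 2.04 in b-KC Co, and 8 of 9 bulge markers were higher in HF-SC Co. Exact zeros, which can be failed estimates, stood for Krt14 in 3 b-KC libraries (GFP of mouse 817, Tom of mice 814 and 817) and for Krt15 in 1 library, HF-SC Co of mouse 828. The libraries held an implied 16526100 to 26283500 reads each. The leanest value of the 9 genes, Tcf7l1 in b-KC Tom of mouse 817, corresponded to 4.29 reads on its longest annotated transcript and 0.325 on its shortest. A set of 12 endothelial markers summed to 60.4 to 99.2 FPKM in control HF-SCs, 1.89 to 35.9 in their GFP counterparts and 492 to 1594 in HF-SC Tom, so HF-SC Tom stood apart from the other sorted cells. Cdh5, Emcn, Cldn5 and Robo4 were each listed at 0 in some libraries of HF-SC GFP or b-KCs, and no marker of the 12 in all libraries of a group.

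Each gene was tested by limma on log2(FPKM + 1), which makes changes of lowly expressed genes look smaller than they are. A call needed a Benjamini-Hochberg adjusted p-value under 0.01 over all genes tested in a comparison. Changes are given as log2 differences with their standard error (SE), n = 3 libraries a group.

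In control mice all 9 factors were higher in HF-SCs than in b-KCs, and every HF-SC Co library lay above every b-KC Co library for each of them, as for 32.2% of all genes tested. The count of 9 of 9 called stands beside 18.7% of all genes tested that were called higher in HF-SC Co. The median difference was 2.02 over the 9 factors and -0.06 over all genes tested. The ratio of mean FPKM ran from 2.48 for Nfatc1 to 31.5 for Lhx2. Markers of other cells differed in the same comparison, with 11 of 12 endothelial markers (median 2.28) and 3 of 5 tested fibroblast markers (median 2.58) called higher in HF-SC Co and 4 of 5 suprabasal markers (median -2.96) called lower. Their part in the differences of the 9 factors was not tested.

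Lhx2, the LIM-homeodomain factor that maintains follicle stem cells, showed the widest gap. It had 165, 102 and 109 FPKM in HF-SC Co of mice 810, 825 and 828 and 4.38, 3.73 and 3.83 in b-KC Co, a log2 difference of 4.63 ± 0.26 (limma adjusted p = 1.65e-09). Tbx1, a T-box factor of stem cell renewal, had 155, 117 and 110 FPKM in control HF-SCs and 11.8, 11.3 and 10.8 in control b-KCs (3.37 ± 0.24). For both genes the lowest bulge library was several times the highest basal one. Tcf7l1, a repressor of Wnt target genes, was a gene of low level in both cell types, with 9.01, 6.96 and 6.43 FPKM in control HF-SCs and 0.622, 0.544 and 0.515 in control b-KCs. Its ratio of means, 13.3, was next to that of Lhx2, while its log2 difference of 2.43 ± 0.16 on the log2(FPKM + 1) scale was much smaller than that of Tbx1.

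Sox9, the HMG-box factor without which the bulge pool is not formed, had 94.6, 72.3 and 72.3 FPKM in control HF-SCs and 15.3, 15.0 and 13.2 in control b-KCs (2.37 ± 0.30). Runx1, the partner of Cbfb, had 10.8, 16.1 and 15.9 FPKM in control HF-SCs and 2.52, 2.62 and 3.04 in control b-KCs (2.02 ± 0.27). Nfib, a nuclear factor I protein, had 142, 94.8 and 102 FPKM in control HF-SCs and 32.0, 25.9 and 34.1 in control b-KCs (1.83 ± 0.16). The basal level of Nfib was thus the highest of the 9 factors in b-KC Co, by the mean of 30.6 ± 4.25 FPKM (SD, n = 3).

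The remaining factors had ratios of means between 2.48 and 3.12. Foxc1, a forkhead factor of quiescence, had 19.8, 19.5 and 22.6 FPKM in control HF-SCs and 7.53, 5.23 and 7.11 in control b-KCs (1.52 ± 0.18). Tcf7l2, a Wnt effector related to Tcf7l1, had 26.1, 21.0 and 20.6 FPKM in control HF-SCs and 7.86, 6.94 and 9.33 in control b-KCs (1.38 ± 0.22). Nfatc1, the calcineurin-controlled factor of bulge quiescence, differed least, with 58.2, 75.2 and 62.1 FPKM in control HF-SCs and 26.0, 29.2 and 23.7 in control b-KCs (1.27 ± 0.28, limma adjusted p = 0.0014). Its call was lost when any control mouse was left out, at adjusted p = 0.0109 without mouse 810, 0.0153 without mouse 825 and 0.017 without mouse 828.

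**Figure D1:**
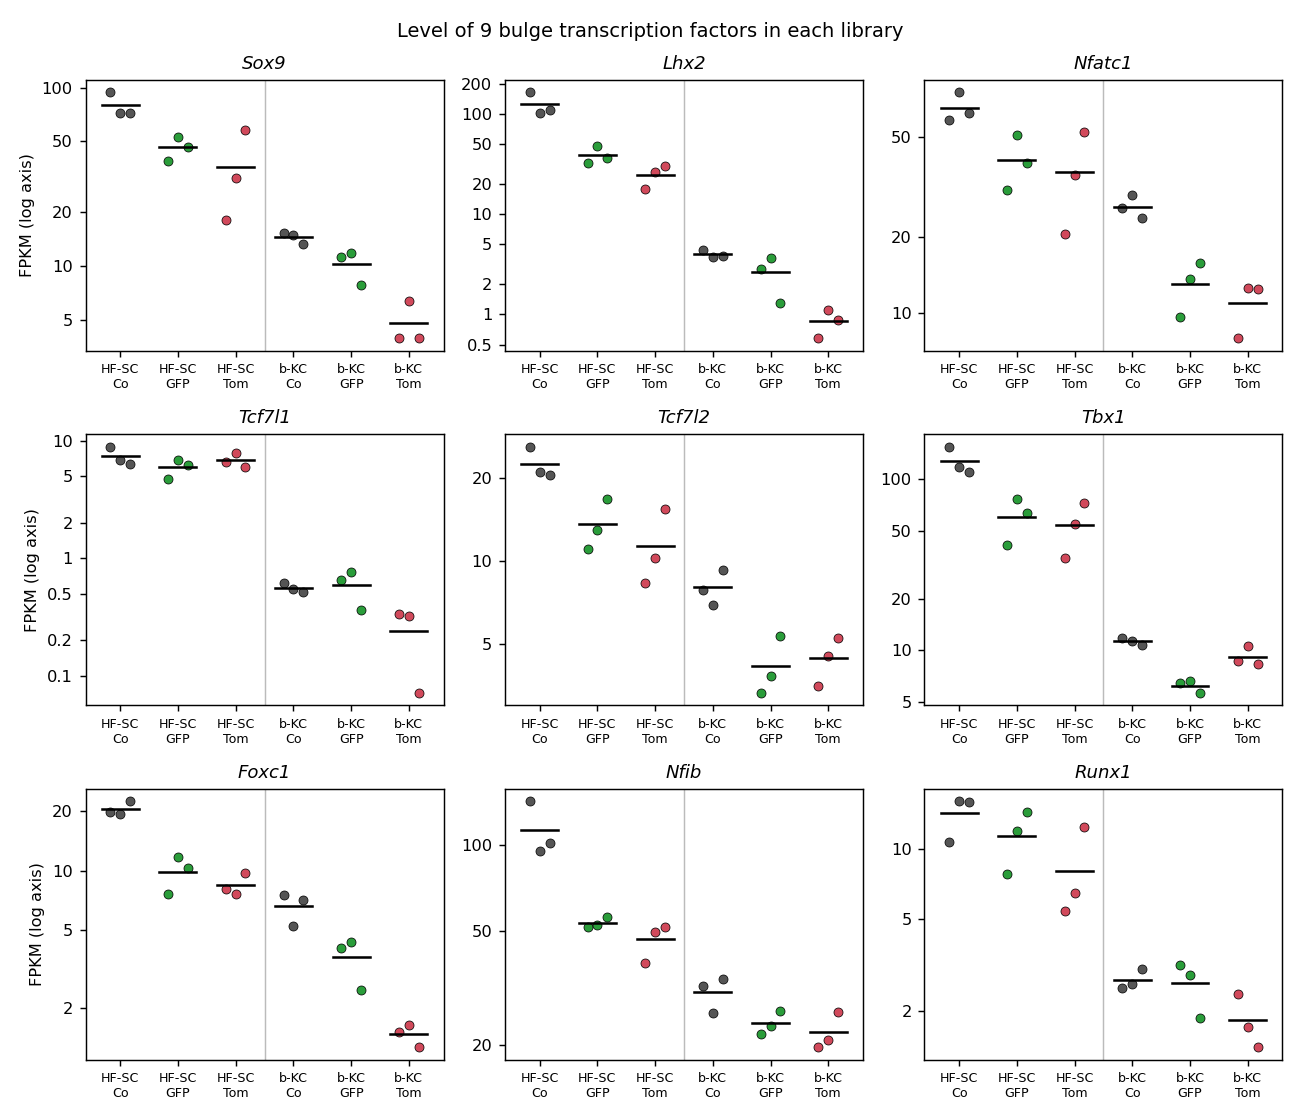
FPKM of each of the 9 factors in each library on a log axis, with 1 point per library (mice 810, 825 and 828 for Co and 814, 815 and 817 for GFP and Tom, from left to right) and a bar at the group mean. The HF-SC libraries stood above the b-KC libraries of the same condition for all 9 factors, and Lhx2 in HF-SC Tom lay below Lhx2 in HF-SC GFP in every library.

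In HF-SCs of DKO* mice the change of all 9 factors against HF-SC Co was below 0 in both fractions. In HF-SC GFP, 4 of 9 were called lower, beside 12.3% of all genes tested, namely Lhx2, Nfib, Foxc1 and Tbx1. In HF-SC Tom, 6 of 9 were called lower, beside 13.9%, the same 4 with Sox9 and Tcf7l2. No factor was called higher in either fraction. The median change was -0.77 in GFP and -1.20 in Tom over the 9 factors, and -0.05 and -0.04 over all genes tested. Mean levels were 30.9% to 80.2% of the Co mean in GFP and 19.8% to 92% in Tom.

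Markers that define the sorted cells moved with the factors. Of the 9 bulge markers, 7 were called lower in GFP (median -1.41) and 6 in Tom (median -1.19). Cd34, on which the HF-SC gate was set, had 161 to 228 FPKM in GFP and 260 to 319 in Tom against 640 to 889 in Co, and it fell by 1.89 ± 0.35 in GFP and fell by 1.35 ± 0.35 in Tom. Of the 8 basal epidermis markers, Ly6a alone was called, higher in both fractions, with 36.6 to 63.7 FPKM in Co, 224 to 351 in GFP and 248 to 882 in Tom. The part of the makeup of the sorted cells in the values of the 9 factors was not tested.

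Lhx2 had the largest change of the 9 factors in both HF-SC fractions. It had 32.3, 47.9 and 35.9 FPKM in the GFP fraction of mice 814, 815 and 817 and 17.6, 26.4 and 30.2 in the Tom fraction. It fell by 1.66 ± 0.26 in GFP (limma adjusted p = 0.000138) and fell by 2.29 ± 0.26 in Tom (adjusted p = 5.1e-06). All 6 DKO* libraries lay below the lowest control library of 102 FPKM, and the 3 Tom values lay below the 3 GFP values.

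Sox9 in HF-SCs had 38.9, 53.2 and 46.8 FPKM in the GFP fraction and 18.2, 31.1 and 58.2 in the Tom fraction. All 6 values were below the 3 of HF-SC Co, and the Tom library of mouse 817 was the highest of the 6. Sox9 was called in Tom, with a change of -1.27 ± 0.30 (limma adjusted p = 0.00287), and not in GFP, where the change was -0.77 ± 0.30 (adjusted p = 0.0524). The call in Tom was kept without mouse 817 and lost without any other mouse, at adjusted p = 0.0207 without 810, 0.0227 without 814, 0.0207 without 815, 0.0109 without 825 and 0.0113 without 828. It was also lost at adjusted p = 0.0415 in a fit of only the groups compared. In GFP, Sox9 passed without mouse 817 (adjusted p = 0.00987) and in the fit of only the groups compared (0.00885).

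Of the quiescence factors in HF-SCs, Foxc1 had 7.65, 11.7 and 10.3 FPKM in the GFP fraction and 8.09, 7.64 and 9.69 in the Tom fraction. Every DKO* library was below the lowest HF-SC Co library of 19.5 FPKM, and the fractions overlapped each other. Foxc1 fell by 1.01 ± 0.18 in GFP (limma adjusted p = 0.000484) and fell by 1.20 ± 0.18 in Tom (adjusted p = 8.73e-05). Nfatc1 had 30.6, 51 and 39.3 FPKM in the GFP fraction and 20.5, 35.3 and 52.3 in the Tom fraction. Its values were also below those of HF-SC Co but more spread, and its changes of -0.70 ± 0.28 in GFP (adjusted p = 0.0595) and -0.92 ± 0.28 in Tom (adjusted p = 0.0146) were not called. With the mouse as a block, the change of Nfatc1 in Tom passed at adjusted p = 0.0056, and it passed without mouse 817 at 0.00112.

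Tbx1 in HF-SCs had 41.4, 76.1 and 63.2 FPKM in the GFP fraction and 34.6, 54.6 and 72.8 in the Tom fraction, all below the lowest HF-SC Co value of 110 FPKM. It fell by 1.10 ± 0.24 in GFP (limma adjusted p = 0.0019) and fell by 1.27 ± 0.24 in Tom (adjusted p = 0.000496). The call in GFP was lost without mouse 810 (adjusted p = 0.017), and that in Tom in the fit of only the groups compared (0.0149). Nfib had 51.5, 52.2 and 55.8 FPKM in the GFP fraction, a narrow range, and 38.6, 49.6 and 51.7 in the Tom fraction. It fell by 1.05 ± 0.16 in GFP (adjusted p = 0.000145) and fell by 1.24 ± 0.16 in Tom (adjusted p = 2.31e-05).

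The Wnt factors Tcf7l1 and Tcf7l2 are paralogs. In HF-SCs Tcf7l2 had 11.0, 13.0 and 16.8 FPKM in the GFP fraction and 8.32, 10.3 and 15.4 in the Tom fraction, all below HF-SC Co. It was called in Tom (-0.97 ± 0.22, limma adjusted p = 0.00205) and not in GFP (-0.70 ± 0.22, adjusted p = 0.0175), where the fit with the mouse as a block gave adjusted p = 0.00655 and the fit without mouse 817 gave 0.000568. The call in Tom was lost without mouse 810 (0.0167), 814 (0.0118) or 815 (0.0276) and in the fit of only the groups compared (0.019). Tcf7l1 had 4.79, 6.90 and 6.28 FPKM in the GFP fraction and 6.64, 7.94 and 6.03 in the Tom fraction, both overlapping the HF-SC Co values. Its changes were -0.28 ± 0.16 in GFP (adjusted p = 0.186) and -0.10 ± 0.16 in Tom (adjusted p = 0.635), the smallest of the 9 factors in size.

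Runx1 in HF-SCs had 7.82, 12.0 and 14.5 FPKM in the GFP fraction and 5.39, 6.45 and 12.4 in the Tom fraction, and both fractions overlapped HF-SC Co. It was not called in GFP (-0.32 ± 0.27, limma adjusted p = 0.372) or in Tom (-0.81 ± 0.27, adjusted p = 0.0233). Without mouse 817 the change in Tom passed at adjusted p = 0.000266.

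Mouse 817 differed from mice 814 and 815 in HF-SC Tom. Its Tom library held the highest value of the 3 for 8 of the 9 factors, all but Tcf7l1. The share of all genes tested with that order was not computed, so the count is not read as particular to the factors. Over all genes tested, 3774 were called in HF-SC Tom against Co, and 5816 without mouse 817. The 12 endothelial markers summed to 1594 FPKM in HF-SC Tom of mouse 814, 1547 in mouse 815 and 492 in mouse 817, and 12 of 12 were called higher there than in the controls. Of these, Cdh5, Kdr and Cldn5 would not have passed the filter without the HF-SC Tom libraries, so the filter fixed part of this count. Cldn5 needed the b-KC Tom libraries as well. In HF-SC GFP, where 4 factors were called lower, the same markers summed to 21.0, 35.9 and 1.89 FPKM in mice 814, 815 and 817, below all 3 libraries of HF-SC Co, and 7 of 12 were called lower. The part of endothelial RNA in the values of HF-SC Tom was not tested.

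Markers of other cells moved too. The 10 leukocyte markers summed to 6.67 to 10.4 FPKM in HF-SC Co, 116 to 149 in GFP and 96.7 to 196 in Tom. Cd74, an antigen presentation gene, made up most of the sums in the DKO* fractions, and the other 9 markers together had 2.67 to 4.18 FPKM in Co, 4.95 to 20.9 in GFP and 4.6 to 15.7 in Tom, highest in mouse 817 in both fractions. Only 4 of these 10 passed the filter, Cd74 was called higher in both fractions and Itgam in GFP (by 1.06), without whose libraries it would not have passed. Ptprc, the gene of CD45 that the sort selected against, was at most 0.0414 FPKM in Co, 0.946 in GFP and 0.539 in Tom, the last 2 in mouse 817. The 5 suprabasal keratinocyte markers in the table summed to 669 to 875 FPKM in HF-SC Co, 1679 to 3382 in GFP and 1610 to 2064 in Tom, with 3 of 5 called higher in GFP and 2 of 5 in Tom, Krt1 and Krtdap in both. The 6 fibroblast markers summed to 45.9 to 95.5 FPKM in HF-SC Co, 19.4 to 120 in GFP and 13.9 to 115 in Tom, with 0 of 5 tested called in either fraction.

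Smaller lists moved as well. The 4 lymphatic endothelial markers summed to 0.630 to 1.29 FPKM in HF-SC Co, 3.83 to 6.64 in GFP and 7.92 to 38.1 in Tom, and of the 2 tested Pdpn was called higher in both fractions and Lyve1 in Tom. Pdpn made up most of the sums in GFP, with 2.47 to 5.31 FPKM. Prox1 was at most 0.205 FPKM in GFP and 2.70 in Tom, and Flt4 at most 0.122 and 4.84. The 5 mural cell markers summed to 43.3 to 47.4 FPKM in Co, 17.2 to 32.0 in GFP and 25.6 to 37.7 in Tom, and of the 3 tested Acta2 was called higher in both fractions, Tagln higher in Tom and Cspg4 lower in Tom. Cspg4 alone had 39.05 to 45.2 FPKM in HF-SC Co, 15.7 to 28.2 in GFP and 9.97 to 33.2 in Tom. Acta2 was at most 0.455 FPKM in HF-SC Co, 1.51 in GFP and 1.49 in Tom. Rgs5 and Myh11 were at 0 in all HF-SC Co libraries. The 5 melanocyte markers summed to 3.68 to 5.98 FPKM in Co, 7.32 to 17.7 in GFP and 3.59 to 10.2 in Tom, with Tyrp1 alone called, higher in GFP, without whose libraries it would not have passed the filter. The part of all these marker lists in the levels of the 9 factors was not tested.

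**Figure D2:**
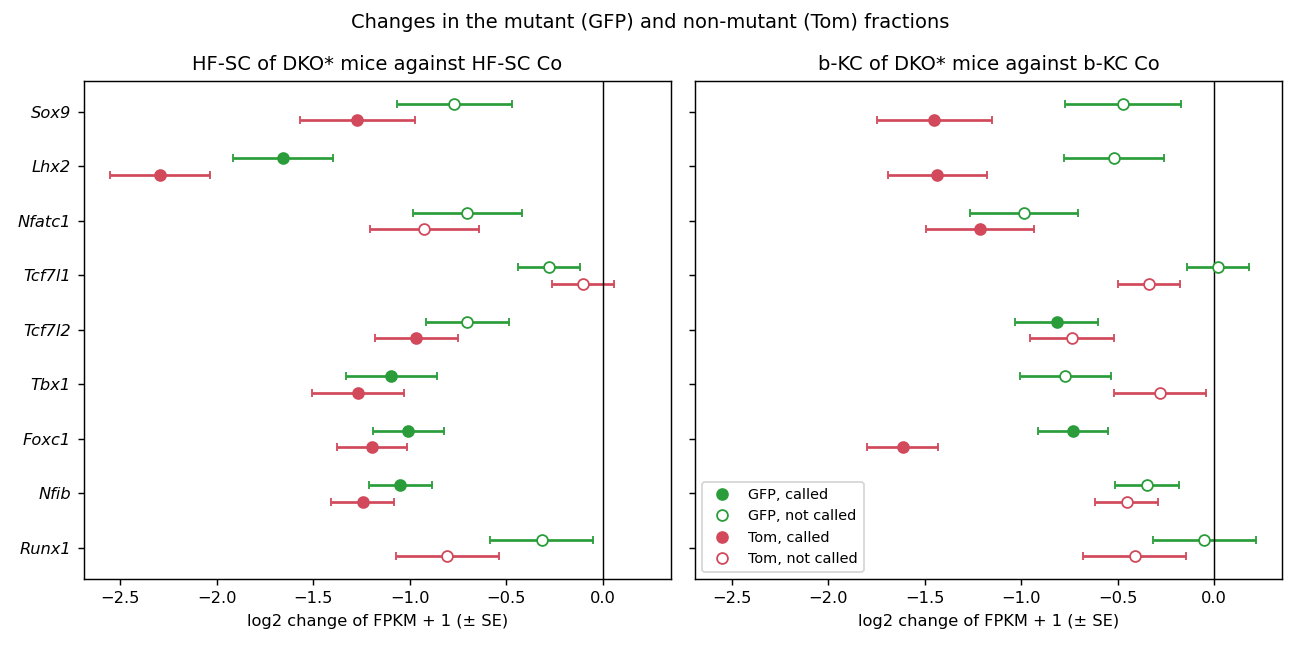
Log2 change of FPKM + 1 with its SE for each factor in GFP (green) and Tom (red) against Co of the same cell type, HF-SCs on the left and b-KCs on the right, with filled points for called changes. All HF-SC points lie below 0, from -0.10 for Tcf7l1 in Tom to -2.29 for Lhx2 in Tom.

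In b-KCs the factors started from lower levels, and fewer were called. In b-KC GFP, 2 of 9 were called lower, Tcf7l2 and Foxc1, beside 12.0% of all genes tested. In b-KC Tom, 4 of 9 were called lower, Foxc1, Sox9, Lhx2 and Nfatc1, beside 15.3%. The median change was -0.52 in GFP and -0.74 in Tom over the 9 factors, and -0.03 and -0.02 over all genes tested. Foxc1 was the one factor called in all 4 comparisons of DKO* cells with Co, and Tcf7l1 and Runx1 were called in none of them.

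Foxc1 in b-KCs had 4.05, 4.34 and 2.49 FPKM in the GFP fraction and 1.51, 1.64 and 1.27 in the Tom fraction, against 5.23 to 7.53 in b-KC Co. The 3 groups did not overlap, with Tom lowest. The change was -0.73 ± 0.18 in GFP (limma adjusted p = 0.00553) and -1.61 ± 0.18 in Tom (adjusted p = 9.24e-06). The call in GFP was lost without mouse 810 (adjusted p = 0.0332), 814 (0.0135), 815 (0.0168), 817 (0.0146) or 828 (0.0342), without the filter on low values (0.0121) and in the fit of only the groups compared (0.0298).

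Sox9 in b-KCs had 11.2, 11.8 and 7.87 FPKM in the GFP fraction and 3.93, 6.41 and 3.96 in the Tom fraction. All 3 Tom values were below all GFP values, which were in turn below the 13.2 to 15.3 FPKM of b-KC Co. Sox9 fell by 1.45 ± 0.30 in Tom (limma adjusted p = 0.00118), and its change in GFP was -0.47 ± 0.30 (adjusted p = 0.216). Lhx2 had 2.86, 3.68 and 1.31 FPKM in the GFP fraction and 0.576, 1.10 and 0.880 in the Tom fraction, where its mean was 21.4% of that in b-KC Co. It fell by 1.43 ± 0.26 in Tom (adjusted p = 0.00043), and its change in GFP was -0.52 ± 0.26 (adjusted p = 0.118).

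Nfatc1 in b-KCs had 9.60, 13.6 and 15.8 FPKM in the GFP fraction and 7.90, 12.5 and 12.5 in the Tom fraction. Every value was below the lowest of b-KC Co, 23.7 FPKM. It was called in Tom (-1.21 ± 0.28, limma adjusted p = 0.00266) and not in GFP (-0.99 ± 0.28, adjusted p = 0.0117). The change in GFP passed with the mouse as a block (adjusted p = 0.00439), in the fit of only the groups compared (0.00802) and without mouse 814 (0.00914) or 817 (0.00211). The call in Tom was lost without mouse 810 (0.0118), 815 (0.0143), 825 (0.0168) or 828 (0.011).

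Tcf7l2 in b-KCs had 3.32, 3.84 and 5.35 FPKM in the GFP fraction and 3.53, 4.54 and 5.26 in the Tom fraction, at mean levels of 51.9% and 55.2% of b-KC Co. The fractions covered the same range below the lowest control value of 6.94 FPKM. It was called in GFP (-0.82 ± 0.22, limma adjusted p = 0.00765), and the change in Tom was close in size and was not (-0.74 ± 0.22, adjusted p = 0.0116). The change in Tom passed with the mouse as a block (adjusted p = 0.00398), without mouse 817 (0.000558), in the fit of only the groups compared (0.00831) and with a pseudocount of 0.1 (0.00899). The call in GFP was lost without mouse 810 (0.0235), 814 (0.0262), 815 (0.0693), 825 (0.0182) or 828 (0.0497), without the filter on low values (0.0195) and in the fit of only the groups compared (0.014).

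The other factors were not called in b-KCs. Tbx1 had 6.41, 6.62 and 5.63 FPKM in the GFP fraction and 8.62, 10.6 and 8.32 in the Tom fraction. Its change of -0.77 ± 0.24 in GFP (limma adjusted p = 0.0172) passed without mouse 814 (0.00834) and in the fit of only the groups compared (0.00373), and its change in Tom was -0.28 ± 0.24. Tbx1 was the factor with b-KC Tom above b-KC GFP in all 3 mice. Nfib had 21.8, 23.2 and 26.3 FPKM in the GFP fraction and 19.6, 20.8 and 26.0 in the Tom fraction, with changes of -0.35 ± 0.16 and -0.45 ± 0.16. Its mean in b-KCs stayed at 77.6% of Co in GFP and 72.2% in Tom, against 47.2% and 41.4% in HF-SCs. Runx1 had 3.16, 2.87 and 1.87 FPKM in the GFP fraction and 2.38, 1.70 and 1.4 in the Tom fraction, with changes of -0.05 ± 0.27 and -0.41 ± 0.27. Tcf7l1 had 0.649, 0.762 and 0.364 FPKM in the GFP fraction and 0.332, 0.321 and 0.0711 in the Tom fraction, with changes of 0.02 ± 0.16 and -0.34 ± 0.16. Its mean in Tom was 43.1% of that in Co, and with a pseudocount of 0.1 the change in Tom was -1.07 (limma adjusted p = 0.013). The lowest of these, 0.0711 FPKM, corresponded to the 4.29 reads given above for the longest transcript.

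The endothelial markers stayed low in b-KCs, with sums of 1.89 to 3.34 FPKM in Co, 1.70 to 6.74 in GFP and 5.01 to 11.7 in Tom, and 0 of 12 called in either fraction. Other lists moved there. Of 5 suprabasal markers Lor and Krt10 were called lower in both b-KC fractions, Krt10 with 2580 to 3418 FPKM in Co, 719 to 1283 in GFP and 717 to 813 in Tom. Of 9 bulge markers 0 were called in GFP, and in Tom Cd200 (-1.70) and Lgr5 (-1.23) were called lower and Itgb6 (0.74) higher. Krt15 had 3038 to 3102 FPKM in b-KC Co, 496 to 1137 in GFP and 155 to 681 in Tom, and was not called. The fit shares its estimate of spread over all groups and included the 0 of Krt15 in HF-SC Co of mouse 828. Of the basal epidermis list Col17a1 was called lower in GFP (-2.05) and Ly6a higher in Tom (1.37), and of the lymphatic list Pdpn higher in Tom (1.47). Of the mural list Cspg4 was called lower in both fractions and Acta2 higher in GFP. The leukocyte markers summed to 4.38 to 7.45 FPKM in b-KC Co, 233 to 403 in GFP and 170 to 807 in Tom, of which Cd74 alone was called. Without Cd74 the sums were 0.919 to 1.06 FPKM in Co, 2.46 to 2.98 in GFP and 1.24 to 2.77 in Tom. Their part in the values of the 9 factors was not tested.

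GFP and Tom cells of the same mice were then compared to see which factors differed between mutant and non-mutant neighbours. In HF-SCs 0 of 9 factors were called, beside 4.99% of all genes tested in either direction, and 1 of 9, Lhx2, had an unadjusted p-value under 0.05 by limma, as had 20% of all genes. The difference of Lhx2, GFP minus Tom, was 0.64 ± 0.26 (limma adjusted p = 0.166), and it was above 0 in all 3 mice. In all, 8 of 9 factors had a positive difference and 4 of 9, Lhx2, Tcf7l2, Nfib and Runx1, were above 0 in each of the 3 mice, as were 20.6% of all genes tested. In the same comparison 11 of 12 endothelial markers were called lower in GFP than in Tom (median -4.84), and their part in the differences of the factors was not tested. Sox9 differed by 1.06 in mouse 814, 0.76 in mouse 815 and -0.31 in mouse 817, a range wider than the mean difference of 0.50.

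In b-KCs 0 of 9 factors were called between GFP and Tom, beside 0.486% of all genes tested, and 4 of 9, Sox9, Lhx2, Tcf7l1 and Foxc1, had an unadjusted p-value under 0.05 by limma, as had 11.5% of all genes. GFP lay above Tom in each of the 3 mice for 7 of 9 factors, the exceptions being Tbx1 and Tcf7l2, and for 20.1% of all genes tested. The nearest to a call was Foxc1, with a difference of 0.88 ± 0.18 (limma adjusted p = 0.0212) and within-mouse values of 1.01, 1.02 and 0.62. It passed with the mouse as a block (adjusted p = 0.00573), with a pseudocount of 0.1 (0.00657) and without mouse 817 (0.00442). It did not pass with the mouse as a fixed block in these groups (0.0313), in the fit of only the groups compared (0.161) or without any other mouse (0.0374 to 0.318, the highest without mouse 815). Sox9 differed by 0.98 ± 0.30 (adjusted p = 0.123) and Lhx2 by 0.91 ± 0.26 (adjusted p = 0.095). With a pseudocount of 0.1 the difference of Lhx2 was 1.44 and that of Tcf7l1 was 1.09 in place of 0.36, neither called.

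**Figure D3:**
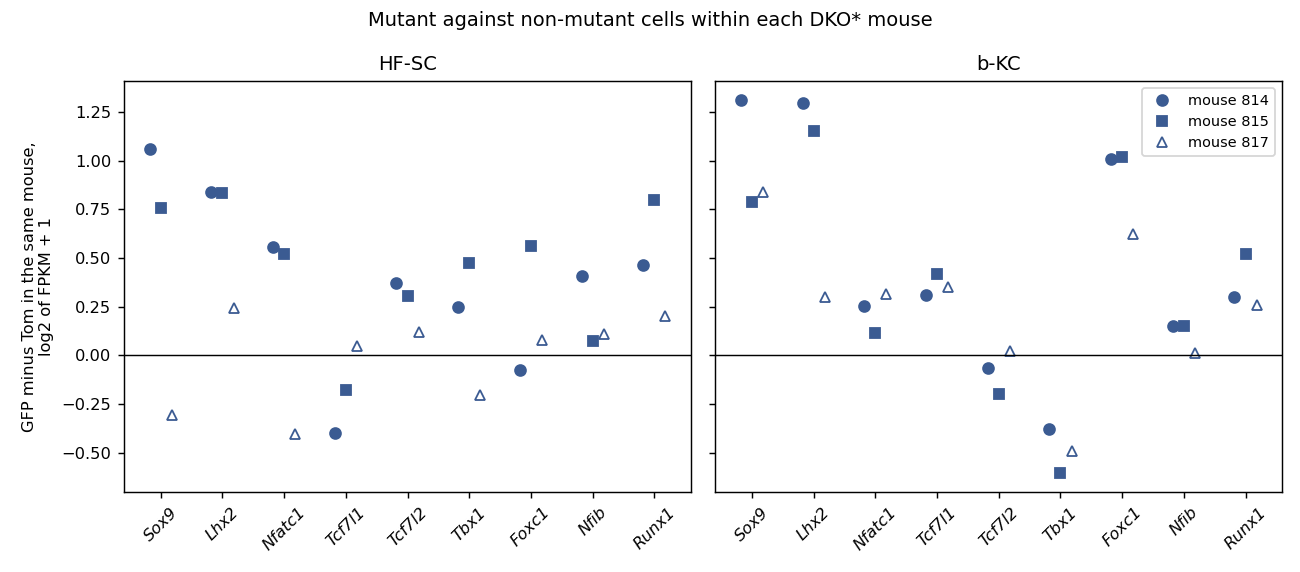
Difference in log2(FPKM + 1) between GFP and Tom of the same cell type and mouse for each factor, with 1 symbol per mouse. In b-KCs 7 of 9 factors lie above 0 in all 3 mice, and in HF-SCs Sox9, Nfatc1 and Tbx1 lie above 0 in mice 814 and 815 and below it in mouse 817.

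The gap between HF-SCs and b-KCs was still there in DKO* mice. In GFP cells all 9 factors were called higher in HF-SCs, beside 13.4% of all genes tested, and in Tom cells again all 9, beside 16.6%. Every HF-SC library lay above every b-KC library for all 9 in both fractions, and for 24.6% of all genes tested in GFP and 23.4% in Tom. Markers of other cells differed here too. Of 12 endothelial markers 0 were called in GFP cells and 11 were called higher in HF-SCs in Tom cells (median 4.93), of 5 tested fibroblast markers 3 and 4 were called higher, and of 5 suprabasal markers 1 and 3 were called lower. Their part in the gap of the 9 factors was not tested. Ratios of mean FPKM ran from 2.24 (Nfib) to 14.8 (Lhx2) in GFP and from 2.11 (Nfib) to 29.0 (Lhx2) in Tom. The log2 difference of Lhx2 was 3.50 ± 0.26 in GFP and 3.77 ± 0.26 in Tom, and that of Tbx1 was 3.04 ± 0.24 and 2.38 ± 0.24. Tcf7l1 had the second highest ratio in all 3 conditions, 10.1 in GFP and 28.4 in Tom, and its log2 difference in Tom was 2.66, or 4.46 with a pseudocount of 0.1. Without mouse 815 the calls of Nfatc1 (adjusted p = 0.0263), Tcf7l2 (0.0115), Nfib (0.0118) and Runx1 (0.0125) were lost in GFP, and those of Nfatc1 (0.0102), Tcf7l2 (0.0166) and Nfib (0.0149) in Tom. In the fit of only the groups compared, Foxc1 was lost in GFP (0.011) and Nfatc1 (0.0144) and Tcf7l2 (0.0146) in Tom.

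An interaction term asked whether a factor changed by more in HF-SCs than in b-KCs. For the change to GFP 0 of 9 factors were called, beside 5.21% of all genes tested, and for the change to Tom 0 of 9, beside 8.05%. Unadjusted p-values under 0.05 by limma were found for 2 factors in GFP, Lhx2 and Nfib, and for 3 in Tom, Lhx2, Tbx1 and Nfib, all of them negative on the log2(FPKM + 1) scale. Over all genes tested 28.0% and 29.0% had such p-values, so the counts of 2 and 3 were near those shares. The term for Nfib was -0.70 ± 0.23 in GFP (limma adjusted p = 0.0611) and -0.79 ± 0.23 in Tom (adjusted p = 0.03, and 0.00588 with the mouse as a block). That for Lhx2 was -1.14 ± 0.37 in GFP (adjusted p = 0.0534, and 0.00716 without mouse 817) and -0.86 ± 0.37 in Tom (adjusted p = 0.131). In Tom the mean of Lhx2 was 19.8% of Co in HF-SCs against 21.4% in b-KCs, and the term was -0.20 with a pseudocount of 0.1, so its size rested on the pseudocount of 1 at the low level of Lhx2 in b-KCs. The term for Tbx1 was -0.32 ± 0.33 in GFP and -0.99 ± 0.33 in Tom (adjusted p = 0.0573).

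**Figure D4:**
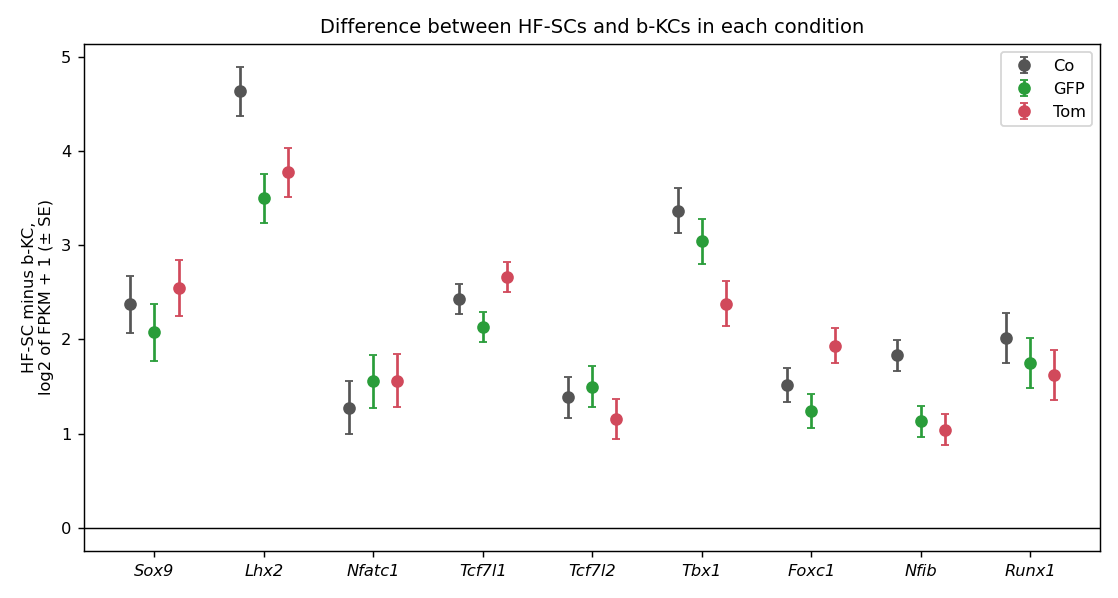
Difference in log2(FPKM + 1) between HF-SCs and b-KCs with its SE for each factor in Co (grey), GFP (green) and Tom (red). All points lie above 0, and those of Lhx2 are at 4.63 in Co, 3.50 in GFP and 3.77 in Tom.

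The order of the 6 group means was much the same for most factors. How many of all genes tested share this order or these overlaps was not computed, so both are given as description only. Sox9, Lhx2, Nfatc1, Foxc1, Nfib and Runx1 all ran Co, GFP, Tom from high to low in HF-SCs and then, below these, the same way in b-KCs. Lhx2 was the factor whose neighbours in this order had no overlapping libraries at any step. For Sox9 and Foxc1 the libraries overlapped only between the fractions of DKO* HF-SCs. For Runx1 the libraries of neighbouring groups overlapped at every step except between HF-SC Tom and b-KC Co. Nfatc1 overlapped also between HF-SC Tom and b-KC Co, where HF-SC Tom of mouse 814, at 20.5 FPKM, was below every b-KC Co library. Tcf7l2 and Tbx1 differed from this order in having b-KC Tom above b-KC GFP, and the 2 groups overlapped for Tcf7l2 but not for Tbx1. Tcf7l1 had HF-SC Tom before HF-SC GFP and b-KC GFP before b-KC Co, and both pairs overlapped.

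By Pearson correlation of log2(FPKM + 1) over the 18 libraries, the 36 pairs of factors had r of 0.82 to 0.98 with a median of 0.92, the lowest between Nfatc1 and Tcf7l1 and the highest between Sox9 and Lhx2. These libraries share mice and cell types, so r describes how alike the patterns over the groups were. Among all genes tested, those most like Lhx2 were Farp1, Thsd1 and Paqr6 (r of 0.99 each), and those most like Sox9 were Fst (0.98), Sema3e (0.98) and Lhx2 (0.98). Cd34, Eps8 and Plekhg1 were nearest to Tcf7l1 (r of 0.99, 0.99 and 0.99), and Dkk3, Lpar3 and Il31ra to Tbx1 (0.99, 0.99 and 0.98). Nearest to Nfatc1 were Angptl2, Cspg4 and Esyt3 (0.98, 0.97 and 0.97), and to Foxc1 Ctgf, Phf1 and Dnaja4 (0.98, 0.97 and 0.97). For Tcf7l2 they were Pkd1, Sertad4 and Rhpn2 (0.99, 0.98 and 0.98), for Nfib Gm6277, Tfap2b and Mitf (0.99 each) and for Runx1 Ptprk, Col8a2 and Itgb8 (0.99, 0.98 and 0.98).

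Gene lists are given beside the shares of all genes tested that were called higher and lower, which were 18.7% and 19.3% in HF-SC Co against b-KC Co, for GFP against Co 13.0% and 12.3% of HF-SC and 12.5% and 12.0% of b-KC tests, and for Tom against Co 15.7% and 13.9% of HF-SC and 15.4% and 15.3% of b-KC tests. A list near these shares shows nothing particular to it. Of 32 listed relatives 17 passed the filter, and 4 were called higher and 5 lower in HF-SC Co than in b-KC Co, with a median difference of -0.13. Sox15 (-2.92), Sox6 (-1.94) and Sox7 (-1.47) were the largest of these and were lower in the bulge. Nfatc2 passed only through the b-KC Co libraries, so any call of it in this comparison carries that selection. The GFP fraction of HF-SCs had 2 called relatives, both higher than in Co, Sox15 by 2.39 and Sox7 by 1.26. In HF-SC Tom 6 were called higher and 0 lower, led by Sox18 (3.31), Sox7 (2.52) and Sox15 (2.35). Of these 6, Sox17, Sox18 and Lhx6 passed the filter only through the HF-SC Tom libraries, where they were high, so that the filter itself fixed part of this count, and nothing is read from it. Sox18 and Sox17 are known from endothelium, and Sox18 had 29.7, 33.1 and 8.74 FPKM in HF-SC Tom of mice 814, 815 and 817 against 0.634 to 1.75 in HF-SC Co, lowest of the 3 in mouse 817 as were the endothelial sums. In b-KCs 4 of 17 relatives were called lower in GFP, led by Nfic (-1.15), Sox6 (-0.85) and Nfat5 (-0.79), and 3 of 17 in Tom, Sox6 (-0.79), Nfatc2 (-0.79) and Nfat5 (-0.78), the latter count near the share of all genes. Nfatc2 passed the filter only through the b-KC Co libraries, where it is high, so the filter itself fixed part of the Tom count. Nothing is read from its calls against b-KC Co.

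The partners of the factors include the Groucho-type corepressors Tle2, Tle3 and Tle4, the corepressor Ctbp2, the LIM-binding Ldb2 and Rcan1, an inhibitor of calcineurin. Of 15 listed, 14 passed the filter, and the median changes were 0.23 in HF-SC Co against b-KC Co, -0.17 and -0.19 in GFP and Tom of HF-SCs and -0.20 and -0.15 in those of b-KCs. In HF-SC Co 5 were called higher and 2 lower than in b-KC Co, led by Tle2 (1.97), Ldb2 (1.69) and Tle3 (-1.51). In HF-SC GFP 1 was called higher and 2 lower than in Co, Ctbp2 (0.55), Ldb2 (-1.48) and Tle2 (-0.93), and in HF-SC Tom 1 higher and 2 lower, Ldb2 (2.02), Tle2 (-1.01) and Tle4 (-0.95). Ldb2, which is known from endothelium too, thus fell in GFP and rose in Tom, while the counts of this list in both HF-SC fractions were near or under the shares of all genes. In b-KC GFP 1 was called higher and 1 lower, Ctbp2 (1.44) and Rcan1 (-0.74), and in b-KC Tom 1 higher and 4 lower, led by Ctbp2 (1.37), Rcan1 (-1.0) and Tle2 (-0.79).

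Genes linked to these factors in follicle biology, 16 of 16 passing the filter, had median changes of 1.25 in HF-SC Co against b-KC Co, -0.93 and -0.91 in GFP and Tom of HF-SCs and -0.55 and -0.87 in those of b-KCs. In HF-SC Co 9 were called higher and 3 lower than in b-KC Co, led by Lgr5 (5.58), Fgf18 (4.55) and Id2 (3.37). In HF-SC GFP 2 were called higher and 9 lower than in HF-SC Co, the largest being Bmp6 (-1.69), Fgf18 (-1.68) and Lgr5 (-1.68), and in HF-SC Tom 1 higher and 10 lower, led by Bmp6 (-2.04), Lgr5 (-1.93) and Prlr (-1.82). Bmp6 and Fgf18 are signals known to hold the bulge at rest, and Lgr5 is a receptor that marks follicle stem cells. In b-KC GFP 2 were called higher and 3 lower, led by Bmp2 (-1.81), Axin2 (-1.06) and the cyclin-dependent kinase Cdk4 (0.80), and in b-KC Tom 2 higher and 8 lower, led by Bmp2 (-1.85), Cdkn1a (-1.62) and Lgr5 (-1.23). Between the fractions the Cdk inhibitor Cdkn1a was the one called gene of this list, higher in GFP than in Tom by 1.14 in HF-SCs and 1.47 in b-KCs.

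Other transcription factors of follicle and epidermis moved in both directions. Of 31 listed, 28 passed the filter, with medians of -0.36 and -0.51 in GFP and Tom of HF-SCs and -0.54 and -0.71 in those of b-KCs. In control cells 9 were called higher and 10 lower in HF-SC Co than in b-KC Co, led by the differentiation factors Ovol1 (-3.29), Grhl3 (-3.08) and Foxn1 (-2.72). Msx1 would not have passed the filter without the HF-SC Co libraries, so any call of it in a comparison with HF-SC Co carries that selection. In HF-SC GFP 7 were called higher and 3 lower than in HF-SC Co, led by Grhl3 (3.32), Ovol1 (2.24) and Cux1 (1.67), and in HF-SC Tom 4 higher and 10 lower, led by Grhl3 (1.86), Hopx (-1.67) and Msx2 (-1.57). Grhl3 and Ovol1, which act in keratinocyte differentiation, were thus lower in the control bulge than in b-KC Co and higher in both DKO* fractions of HF-SCs, with Ovol1 at 31.0, 41.2 and 59.8 FPKM in Tom against 15.0 to 22.9 in Co (1.14 ± 0.22). In b-KC GFP 1 was called higher and 5 lower, led by Dlx3 (-1.50), Ets2 (-1.46) and Gata3 (-1.09), and in b-KC Tom 1 higher and 12 lower, led by Gata6 (-1.86), Hopx (-1.86) and Dlx3 (-1.76).

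The genes of the factors lie on 8 chromosomes of the build of the files (NCBIM37, mm9). Sox9 is on chromosome 11 (112643538 to 112649074), Lhx2 on chromosome 2 (38194801 to 38225253), Tcf7l1 on chromosome 6 (72576372 to 72739248) and Tcf7l2 on chromosome 19 (55816300 to 56008144). Tbx1 (18581806 to 18588113) and Runx1 (92601712 to 92826311) are both on chromosome 16, Foxc1 is on chromosome 13 (31898515 to 31902504), Nfib on chromosome 4 (81936077 to 82351654) and Nfatc1 on chromosome 18 (80802944 to 80909810). Lhx2 overlaps Gm13584, Tcf7l1 overlaps Gm15401 and Gm15402, Runx1 overlaps Gm16801 and Nfib overlaps 5 annotated genes. The libraries were not stranded, so reads of these overlaps cannot be assigned to 1 gene with certainty.

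c-Jun and JunB, the proteins of the deleted genes, are subunits of the factor AP-1. The windows around the starts of the 9 genes were searched for 3 motifs on both strands. The windows run from 250 bases before to 50 bases after each start in RefSeq on GRCm38.p6, a build other than that of the files, and 6 of the 9 factors matched, with 10 windows, 2 each for Lhx2, Tcf7l2, Tbx1 and Runx1. Sox9, Nfatc1 and Nfib were not matched. The AP-1 motif TGANTCA was in 0 of the 10 windows, and in 7.81% of all 32851 windows. The TCF motif TCAAAG was in 0 of 10, and in 16.0% of all. The RUNX motif TGTGGT was in 2 of 10, in Foxc1 and in 1 of the windows of Runx1, and in 16.8% of all windows. No window held more than 1 of the 3 motifs.

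The 250 bases before the first of 2 starts of Lhx2, the factor with the largest fall in HF-SCs, are shown with those of Foxc1, the factor called in all 4 comparisons, and with 30 bases of Runx1. Capitals mark the RUNX motif, in Foxc1 on the strand of the gene at 188 bases before the start and in Runx1 on the other strand (ACCACA) at 28 and 36 bases after it. They lie at chr2:38339031-38339280 (plus strand), chr13:31806396-31806645 (plus strand) and chr16:92826030-92826059 (minus strand), and are written 5′ to 3′ on the strand of the gene.
Lhx2: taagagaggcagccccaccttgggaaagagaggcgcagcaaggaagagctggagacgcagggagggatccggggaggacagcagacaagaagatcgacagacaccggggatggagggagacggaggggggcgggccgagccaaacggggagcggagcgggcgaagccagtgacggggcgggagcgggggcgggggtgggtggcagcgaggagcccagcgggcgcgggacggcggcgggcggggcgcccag
Foxc1: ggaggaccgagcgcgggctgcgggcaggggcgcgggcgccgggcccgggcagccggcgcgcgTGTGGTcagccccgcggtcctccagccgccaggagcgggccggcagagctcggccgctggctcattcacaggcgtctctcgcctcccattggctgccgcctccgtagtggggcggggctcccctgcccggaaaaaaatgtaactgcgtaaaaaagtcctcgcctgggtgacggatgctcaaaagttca
Runx1: gacctcataaacaACCACAgaACCACAagt
The stretch of Lhx2 holds none of the 3 motifs, nor does the window of its other start, which says only that these letters are not in these windows.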

How the data were processed

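RNA-seq of 18 libraries of sorted ear skin cells was analysed, 3 mice in each of 6 groups taken from the sample titles, with no library left out. Per the methods and labels, cDNA was made with the SMART-Seq v4 kit and non-directional Nextera XT libraries with 12 PCR cycles. Single-end reads of 51 bases were mapped by the authors to NCBI37/mm9 (TopHat2 2.0.10, Bowtie 1.0.0, up to 2 mismatches and 20 multihits). The deposited table gives FPKM for each gene, from Cufflinks 2.2.1 according to the submitters' processing notes. Any further scaling of the deposited FPKM values between libraries is not given in the sources used here.

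Genes that reached 1 FPKM in 3 or more libraries were taken as log2(FPKM + 1) into limma 3.58.1 (R 4.3.3), a model of 6 group means with moderated variances that follow a trend. P-values were adjusted by Benjamini-Hochberg within each of 11 comparisons, and a call needed an adjusted p under 0.01. The authors' own test works on reads and was not repeated. The fit was tested on simulated data for HF-SC GFP against HF-SC Co. Whole-read steps in 7744 genes with 1 annotated transcript gave the implied depth (75.9% to 80.7% of low values within 0.1 of a whole read). PCR reads carry no molecular identifiers, so read-based limits cover counting error only.

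Mouse numbers in the titles pair libraries of the same animal. Deviations from group means correlated at 0.0838 to 0.700 in 21 same-mouse pairs, over 0.1 in 20, and the mouse was fitted as a random block (consensus correlation 0.274) as an alternative. Other alternatives were another pseudocount, other filters, no trend, only the groups compared, rescaled libraries, other thresholds and each mouse left out. The genes named are the 9 factors, the 3 called genes of largest change in each fixed list and the 3 nearest genes of each factor. The 9 factors and all lists were chosen with earlier results of these data known. Figures used Python 3.11.15 with matplotlib 3.10.9.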

Additional observations from a re-analysis of the deposited data

How the results depend on the processing

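Of 99 results on single factors (9 factors in 11 comparisons), the direction of every called result held under all alternatives run. Direction turned in 8 of 1530 alternative values, none of them called and all with a mouse left out. With a mouse left out, these changes against Co ran from -0.20 to 0.026 for Tcf7l1 in HF-SC Tom (turned without mouse 810), -0.056 to 0.13 for Tcf7l1 in b-KC GFP (without 814, at -0.0086, or 815) and -0.16 to 0.11 for Runx1 in b-KC GFP (without 817, or 828 at 0.0086), and these interaction terms ran from -0.044 to 0.23 for Tcf7l2 in GFP (without 828), -0.60 to 0.070 for Runx1 in GFP (without 814) and -0.34 to 0.47 for Sox9 in Tom (without 817). Rescaling the libraries, dropping the trend and the stricter filter changed no call of the 9 factors. The scales used in the rescaling were 1.00053 to 1.01675, so that setting could hardly have moved a call.

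Counts of called factors depended on the threshold. With an absolute log2 change of at least 2 required as well, 5 of 9 factors were called in HF-SC Co against b-KC Co, 4 in HF-SC GFP against b-KC GFP, 4 in HF-SC Tom against b-KC Tom, 1 in HF-SC Tom against Co and 0 in the other comparisons with Co. At an adjusted p under 0.05, 4 were called in b-KC GFP against Co, 1 in b-KC GFP against b-KC Tom and 1 in the interaction for Tom. The fit of only the groups compared called 3 in HF-SC Tom against Co, no filter called 0 in b-KC GFP against Co, and a pseudocount of 0.1 called 1 in b-KC GFP against b-KC Tom. The cause was not tested, except that a fit of fewer libraries has fewer degrees of freedom.

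With each mouse left out in turn, the count ran from 8 to 9 in HF-SC Co against b-KC Co, 3 to 6 in HF-SC GFP and 4 to 8 in HF-SC Tom against Co, 0 to 2 in b-KC GFP and 3 to 5 in b-KC Tom against Co, 0 to 0 in HF-SC GFP against HF-SC Tom, 0 to 1 in b-KC GFP against b-KC Tom, 5 to 9 and 6 to 9 between the cell types in GFP and Tom, and 0 to 1 and 0 to 0 for the interactions. In HF-SCs the highest counts against Co came without mouse 817.

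With the mouse as a replicate block, the paired fit called 1 factor in b-KC GFP against b-KC Tom (Foxc1) and 1 in the interaction for Tom (Nfib), where the fit without it called 0. It added Tcf7l2 in HF-SC GFP and b-KC Tom and Nfatc1 in HF-SC Tom and b-KC GFP, and changed no other call of the 9 factors. A fixed replicate block in the pairs of groups alone changed no call.

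Counts over all genes tested moved by more than 1.5 times in each comparison. They were 4845 (3081 to 6646 over the alternatives that keep the threshold) for HF-SC Co against b-KC Co, 3236 (1664 to 4740), 3774 (1915 to 5816), 3126 (862 to 5790) and 3922 (1825 to 5541) against Co for GFP and Tom of HF-SCs and then of b-KCs, 636 (83 to 1707) and 62 (0 to 396) for GFP against Tom in HF-SCs and b-KCs, 3670 (472 to 5120) and 4138 (1232 to 5617) between the cell types in GFP and Tom, and 664 (95 to 1980) and 1026 (251 to 2007) for the interactions. With 3 mice a group, a difference that was not called is not shown to be absent, and Tcf7l1 in b-KCs rests on few reads.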
